A study of Mus musculus with 6 samples.

Results

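The chemokines Ccl2, Ccl7, Cxcl1, Cxcl12, Cxcl14 and Cx3cl1 and the NF-kB feedback genes Nfkbia, Nfkbiz, Tnfaip3 and Bcl3 were followed by RNA-seq in the intervertebral disc (IVD) of mice with a conditional deletion of Adgrg6. These 10 genes were taken by their symbols from the 43472 gene symbols in the count tables, and all 10 were listed. The mutants were Col2Cre;Adgrg6 f/f mice, in which a Cre recombinase under a Col2 promoter removes the floxed Adgrg6 (Gpr126), an adhesion G protein-coupled receptor, from the whole disc and also from bone and periosteum of the vertebrae, a wider field than cartilage. The controls were Cre (-) littermates, labelled wild type, although their sample titles also carry the name Col2Cre. All mice were of the C57B6/J strain and were taken at postnatal day 20 (P20). Each of the 3 mutant and 3 control libraries was made from whole discs (T8 to L5) pooled from a few mice, so that values describe pools and a mixture of cells, in which fewer cells of a type and less RNA per cell cannot be told apart.

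Chemokines are small secreted proteins that bind receptors on the surface of other cells and direct their migration. Many chemokine genes are switched on by NF-kB, a family of transcription factors that inhibitor proteins hold in the cytoplasm until a signal such as TNF or IL-1 has these inhibitors degraded. NF-kB also switches on its own inhibitors, and this feedback ends the response. Nfkbia encodes IkBα, the inhibitor that is degraded and made again. Tnfaip3 encodes A20, a ubiquitin-editing enzyme that shuts off signalling upstream. Nfkbiz and Bcl3 encode nuclear proteins of the inhibitor family that bind NF-kB on DNA and adjust which targets are transcribed. In degenerating discs, cytokine signalling through NF-kB is known to raise chemokine production by disc cells.

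To show how far these genes share the DNA element that NF-kB binds, the RefSeq promoters (build GRCm38.p6, 250 bases before to 50 bases after the transcription start) were searched on both strands for the kappaB consensus, whose letters are GGG, then A or G, any base, A or T, C or T, C or T, and CC. A promoter was found for 7 of the 10 members, with 8 promoters in all, and none was given for Ccl2, Ccl7 and Nfkbiz. A match was present in 4 of these 8 promoters, those of Nfkbia, Tnfaip3, Bcl3 and Cxcl1, whereas 4.51% of 32851 RefSeq mouse promoters hold a match. Cxcl12, Cxcl14 and Cx3cl1 had no match in this window. The matches are shown with 20 bases on each side, 5′ to 3′ on the strand of the gene and with the match in capitals, and the promoter of Cx3cl1 is shown whole since Cx3cl1 had the smallest p among the members.
Nfkbia, chr12:55492647-55492696, minus strand: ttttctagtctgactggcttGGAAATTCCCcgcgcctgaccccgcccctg
Tnfaip3 distal match, chr10:19015506-19015555, minus strand: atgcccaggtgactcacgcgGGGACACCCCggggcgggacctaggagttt
Tnfaip3 proximal match, chr10:19015393-19015442, minus strand: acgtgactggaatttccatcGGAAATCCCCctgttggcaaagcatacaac
Bcl3, chr7:19822724-19822773, minus strand: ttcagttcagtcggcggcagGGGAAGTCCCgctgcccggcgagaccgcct
Cxcl1, chr5:90891154-90891204, plus strand: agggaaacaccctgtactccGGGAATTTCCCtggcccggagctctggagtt
Cx3cl1 promoter, no match, chr8:94771930-94772229, plus strand: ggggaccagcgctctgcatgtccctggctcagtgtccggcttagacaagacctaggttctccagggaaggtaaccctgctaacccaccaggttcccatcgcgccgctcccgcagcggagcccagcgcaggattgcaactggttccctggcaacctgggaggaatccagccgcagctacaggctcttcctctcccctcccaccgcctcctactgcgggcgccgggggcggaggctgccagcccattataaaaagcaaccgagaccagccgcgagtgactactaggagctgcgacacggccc

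The Nfkbia match began at base -29 from the start. The upstream promoter of Tnfaip3 held matches from -125 and from -12, and the other Tnfaip3 promoter held none. The Bcl3 match began at base 3 after the start. In Cxcl1 the capitals cover 2 overlapping matches, 1 on each strand, beginning at -71 and -70. A match describes letters in a window and not a bound site. Counted by gene, 4 of 7 members held a match. So did 6 of 23 other chemokines, 5 of 12 other NF-kB inhibitors, 5 of 16 other NF-kB target genes and 4 of 19 chemokine receptors. A match was also held by 3 of 14 cytokine and Toll receptors, 3 of 12 inflammatory cytokines, 2 of 17 relay genes and 1 of 2 subunits (Rel and Rela). The subunit Nfkb2 also held a match and is counted here among the target genes. Lists outside the pathway ranged from 4 of 7 cartilage and disc genes and 4 of 17 immediate early genes, through 1 of 6 endothelial, 1 of 6 stromal and 1 of 8 macrophage genes, to 0 of 10 neutrophil, 0 of 8 muscle, 0 of 7 red cell and 0 of 5 lymphocyte genes.

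The libraries held 9061491 to 12017008 counts on genes, and 3 counts in a library were worth 0.235 to 0.341 CPM, the counts of a gene scaled to a common library size, here by the TMM method of edgeR. The whole gene count of Adgrg6, listed as Gpr126, was 108.6 ± 14.7 CPM (SD, n = 3) in controls and 122.4 ± 16.1 CPM (n = 3) in mutants, and it does not separate the deleted part from the rest of the gene. Cartilage genes were abundant in every library, with Acan (aggrecan) at 3565 to 5462 CPM. Summed over 10 cartilage and disc genes, control replicate 3 held 86560 CPM and the other libraries 118500 to 151500 CPM. Control replicate 3 also had the highest TMM scaling factor (1.149). Of 10 cartilage and disc genes, 3 were lower in mutants at an unadjusted p under 0.05 by edgeR (Matn3, Col9a2 and Col9a3) and none was higher, with a median log2 fold change of -0.30. Libraries differed in genes of other tissues. Summed over 10 skeletal muscle genes, control replicate 1 held 5103 CPM and the other libraries 210.2 to 317.9 CPM. Mutant replicate 1 held the most CPM of 10 neutrophil genes (158.1, against 16.4 to 61.2 in the other libraries) and of 22 immediate early genes (3526, against 1579 to 2966), and 13 of these 22 early genes were higher in mutants at an unadjusted p under 0.05, with none lower. Over all libraries, all 9 tested neutrophil genes had a positive log2 fold change, with a median of 1.02, and 2 were higher at an unadjusted p under 0.05. With 1 library left out the log2 fold change fell to -0.451 for Ngp, -0.423 for Camp and -0.779 for Ltf. The neutrophil sums of mutant replicates 2 and 3, at 56.7 and 34.3 CPM, lay within the range of the controls. A list of 8 red cell genes summed to 40.1 to 344.3 CPM in controls and 215.0 to 452.0 CPM in mutants. All 8 had a positive log2 fold change, with a median of 1.001 and 1 higher at an unadjusted p under 0.05. These values moved with single libraries, from 0.551 to 2.16 for Hba-a1 and from 0.274 to 2.05 for Hbb-bs. The sums of 10 lymphocyte genes were 9.55 to 11.7 CPM in controls and 6.91 to 11.5 CPM in mutants.

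Per kilobase of exon, the members ranged from among the most abundant of the genes tested to below nearly all of them. Percentages here refer to the 15377 genes with enough counts to be tested and a known exon length. Ccl2, Ccl7 and Cxcl1 had too few counts to be among these. On the scale of CPM per kilobase, averaged over the 6 libraries, Cxcl14 stood highest at 70.0 and above 96.7% of the genes tested. Nfkbia followed at 31.2, above 92.0% of genes. Both of these levels were separate from the next gene in each genotype. Cxcl12 at 6.42, Bcl3 at 3.77, Cx3cl1 at 2.98 and Nfkbiz at 2.20 formed a middle group, in which the ranges of neighbouring genes overlapped, except for Bcl3 and Cx3cl1 in the controls. Tnfaip3 stood at 0.459, above 6.48% of genes, and its range overlapped that of Ccl2 at 0.358. Ccl7 at 0.339 and Cxcl1 at 0.168 had the lowest means. In both genotypes the range of Ccl7 overlapped those of Ccl2 and Cxcl1. Transcripts of the constitutive chemokine Cxcl14 and of the inhibitor Nfkbia were therefore plentiful in disc tissue, and those of Ccl2, Ccl7 and Cxcl1 had at most 7 counts in a library. These levels rest on merged exons of GENCODE M21 and are approximate where the counted isoform is shorter.

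**Figure D1:**
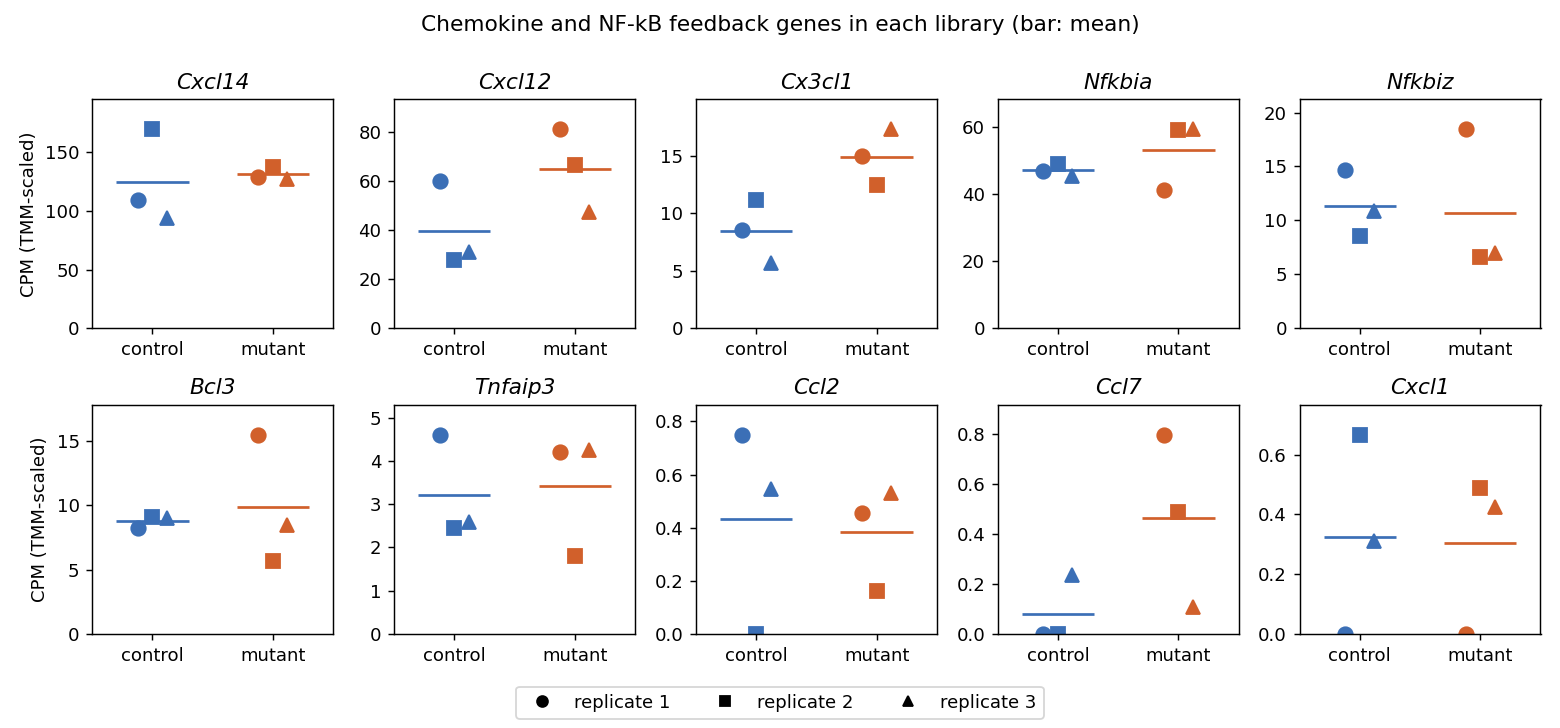
Each panel plots 1 gene, with TMM-scaled CPM on a linear axis from 0 that has its own range in each panel. Points are libraries, shaped by replicate number, and bars are the means of 3 libraries. The mutant libraries sit above all control libraries for Cx3cl1 and overlap them for the other 9 genes, and Ccl2, Ccl7 and Cxcl1 stay below 1 CPM.

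No member passed an adjusted p of 0.05 in the comparison of mutant with control libraries (edgeR, quasi-likelihood test; p-values adjusted by Benjamini-Hochberg across the 16152 genes tested), where 1 gene (Prss50), or 0.00619% of genes, passed. Of the 10 members, 7 had enough counts to be tested. Cx3cl1 and Cxcl12 were higher in mutants at an unadjusted p under 0.05, and no member was lower. Over all genes tested, 7.21% had an unadjusted p under 0.05, with 2.89% higher and 4.32% lower in mutants. The log2 fold change, mutant over control, was positive for 6 of the 7 and negative for Nfkbiz, with a median of 0.17 beside a median of -0.01 over all genes tested. In 1 of the 7 tested members, Cx3cl1, all mutant libraries lay on one side of all controls, as they did for 11.4% of all genes tested. The labels do not say that pools came from separate litters, and p-values here measure the spread between these pools.

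Cx3cl1 encodes fractalkine, the chemokine that is made as a membrane-anchored adhesion molecule and shed by proteases to attract cells bearing CX3CR1. It lies on chr8:94772009-94782427, plus strand, with 6 merged exons. Its level was 8.56, 11.2 and 5.71 CPM in control replicates 1, 2 and 3, and 15.02, 12.5 and 17.3 CPM in mutant replicates 1, 2 and 3. The lowest mutant library stood above the highest control library. The mean was 8.49 ± 2.75 CPM (SD, n = 3) in controls and 14.9 ± 2.42 CPM (n = 3) in mutants, 1.76 times as high. In edgeR the log2 fold change was 0.82 with a standard error of 0.29, an unadjusted p of 0.0174 and a Benjamini-Hochberg adjusted p of 0.676. With any 1 library left out, it ranged from 0.60 to 1.06, and the unadjusted p was over 0.05 without control replicate 3 (0.0517) or mutant replicate 3 (0.0676). The genes whose log2 CPM followed Cx3cl1 most closely over the 6 libraries were Mmp2 (Pearson r of 0.993), a gelatinase, Faim2 (0.993) and Mfap2 (0.988), a microfibril protein. Their log2 fold changes were also positive (0.437, 1.04 and 0.376 by edgeR), and r over both genotypes includes this difference. Of 16151 genes, 232 had an r above 0.9 with Cx3cl1 over these 6 libraries.

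Cx3cr1, the fractalkine receptor of microglia and other macrophages, was listed at 22.5 to 31.0 CPM in the 6 libraries, with a log2 fold change of -0.01 (SE 0.19) and an unadjusted p of 0.947 by edgeR. This count is uncertain, since the annotated span of Cx3cr1 encloses Gorasp1, Csrnp1 and Xirp1 on the same strand, and all of these were listed with 0 counts. The macrophage list, summed over 12 genes, ranged from 76.5 to 115.8 CPM in controls. In mutant replicates 1, 2 and 3 it stood at 190.5, 88.4 and 107.7 CPM. Of its 11 tested genes, 8 had a positive and 3 a negative log2 fold change, with a median of 0.35. Among them 1, Cd68, was higher at an unadjusted p under 0.05 by edgeR (log2 fold change 0.74, unadjusted p of 0.040, reaching 0.0965 with 1 library left out). Endothelial cells also make fractalkine, and 10 endothelial genes summed to 190.5 to 339.7 CPM in controls and 269.7 to 314.7 CPM in mutants, so that the ranges overlapped. The part of either cell type in the Cx3cl1 difference was not tested.

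Cxcl12 encodes SDF-1, the chemokine that holds blood stem cells and leukocytes in bone marrow through CXCR4. It lies on chr6:117168535-117181367, plus strand. It stood at 60.2, 28.0 and 31.2 CPM in control replicates 1, 2 and 3, and at 81.3, 66.5 and 47.7 CPM in mutant replicates 1, 2 and 3. Control replicate 1, the library with the most muscle transcripts, lay above mutant replicate 3, and the genotypes therefore overlapped. The mean was 39.8 ± 17.7 CPM (SD, n = 3) in controls and 65.2 ± 16.8 CPM (n = 3) in mutants. The log2 fold change was 0.71 with a standard error of 0.30, an unadjusted p of 0.0385 and an adjusted p of 0.683 by edgeR. This value moved with single libraries. Without control replicate 1 it was 1.16, with an unadjusted p of 0.000657 and an adjusted p of 0.0760 by edgeR, and all mutant libraries then stood above both remaining controls, where 30.1% of all tested genes did not overlap. Without mutant replicate 3 the unadjusted p was also under 0.05 by edgeR. Both remaining mutants then stood above all controls, where 19.7% of all tested genes did not overlap. The unadjusted p was 0.135 when control replicate 2 was left out, 0.124 for control replicate 3, 0.124 for mutant replicate 1 and 0.0685 for mutant replicate 2, and the log2 fold change stayed between 0.51 and 0.71. Without both first replicates the log2 fold change was 0.997, with an unadjusted p of 0.0013, a setting added after the muscle and early genes were seen to stand apart.

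The receptors of Cxcl12 were both detected. Ackr3 (CXCR7), which binds and removes CXCL12, stood at 18.3, 21.5 and 10.9 CPM in controls and 20.7, 33.1 and 29.6 CPM in mutants. Only mutant replicate 1 overlapped the controls, below their replicate 2. Its log2 fold change was 0.73 (SE 0.27), with an unadjusted p of 0.0243 and an adjusted p of 0.676 by edgeR, and with 1 library left out the unadjusted p reached 0.0819. Cxcr4, the signalling receptor, was at 1.498, 1.55 and 1.88 CPM in controls and 4.33, 2.29 and 1.06 CPM in mutants, with an unadjusted p of 0.330. Marrow stromal cells are a main source of Cxcl12, and a list of 8 stromal genes summed to 167.8 to 226.7 CPM in controls and 211.8 to 271.1 CPM in mutants. None of the 8 had an unadjusted p under 0.05, and the part of these cells in the Cxcl12 difference was not tested. Among the controls, replicate 1 also held the highest sum of endothelial genes (339.7 CPM, against 190.5 and 221.2 CPM), whereas the mutants, at 269.7, 302.3 and 314.7 CPM, ran in the reverse order of Cxcl12. Over all libraries 8 of the 10 endothelial genes had a positive and 2 a negative log2 fold change. Without control replicate 1 the median log2 fold change of the 10 endothelial genes went from 0.30 to 0.65 and 6 of them had an unadjusted p under 0.05, where none did over all libraries, while the number of such genes among all those tested went from 1164 of 16152 to 2427 of 17164. The part of endothelial cells in the Cxcl12 difference was not tested either.

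Cxcl14, a chemokine made constitutively by epithelial and mesenchymal cells, was the most abundant member. It stood at 109.2, 169.6 and 94.1 CPM in controls and at 128.6, 137.9 and 127.7 CPM in mutants. All mutant libraries fell within the range of the controls, with means of 124.3 ± 40.0 CPM (SD, n = 3) and 131.4 ± 5.66 CPM (n = 3). The log2 fold change was 0.08 (SE 0.23) with an unadjusted p of 0.729 by edgeR, and its sign changed with the setting.

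Ccl2 and Ccl7, the neighbouring genes of the monocyte chemoattractants MCP-1 and MCP-3 on chromosome 11, and Cxcl1, a neutrophil chemoattractant, were too low to be tested. Ccl2 had 7, 0 and 7 counts in control replicates 1, 2 and 3 and 4, 2 and 5 counts in the mutants. Its sum was 14 counts in controls and 11 in mutants, a ratio by library size of 0.804 with an exact 95% interval of 0.330 to 1.91. Cxcl1 had 0, 6 and 4 counts in controls and 0, 6 and 4 in mutants, a ratio of 1.02 (interval 0.382 to 2.74). Ccl7 had 0, 0 and 3 counts in controls and 7, 6 and 1 in mutants. The counts of Ccl7 summed to 3 and 14, a ratio of 4.77 with an interval of 1.33 to 25.9, and most of the mutant counts came from replicates 1 and 2. These intervals cover counting error only. With the filter on low counts removed, edgeR gave Ccl7 a log2 fold change of 2.31 with a standard error of 1.85, an unadjusted p of 0.216 and an adjusted p of 0.734. Without the filter, none of these 3 genes had an unadjusted p under 0.05 by edgeR (0.906 for Ccl2 and 0.982 for Cxcl1).

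Nfkbia, the most abundant of the feedback genes, stood at 46.9, 49.0 and 45.5 CPM in controls and at 41.1, 59.2 and 59.3 CPM in mutants. Mutant replicate 1 was the lowest of all 6 libraries and the other mutants were the highest. The means were 47.1 ± 1.75 CPM (SD, n = 3) and 53.2 ± 10.5 CPM (n = 3), and the log2 fold change was 0.18 (SE 0.18) with an unadjusted p of 0.354 by edgeR. Nfkbiz stood at 14.7, 8.55 and 10.9 CPM in controls and at 18.4, 6.61 and 7.01 CPM in mutants. Here mutant replicate 1 was the highest library and the other mutants the lowest, the reverse of Nfkbia. The log2 fold change of Nfkbiz was -0.10 (SE 0.41) with an unadjusted p of 0.819.

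Bcl3 stood at 8.24, 9.10 and 8.99 CPM in controls and at 15.5, 5.71 and 8.499 CPM in mutants. Controls lay close together and mutants spread to both sides of them, with a log2 fold change of 0.17 (SE 0.36) and an unadjusted p of 0.652 by edgeR. Without mutant replicate 1 the log2 fold change was -0.27. An antisense gene, Gm16175, shares 161 exon bases with Bcl3 and held 150 counts over all libraries beside 560 for Bcl3, and reads of the pair cannot be told apart where the strand was not used. Tnfaip3 was low, at 4.60, 2.44 and 2.58 CPM in controls and 4.21, 1.80 and 4.25 CPM in mutants. Its highest library was control replicate 1 and its lowest mutant replicate 2. The log2 fold change was 0.09 (SE 0.51) with an unadjusted p of 0.869.

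**Figure D2:**
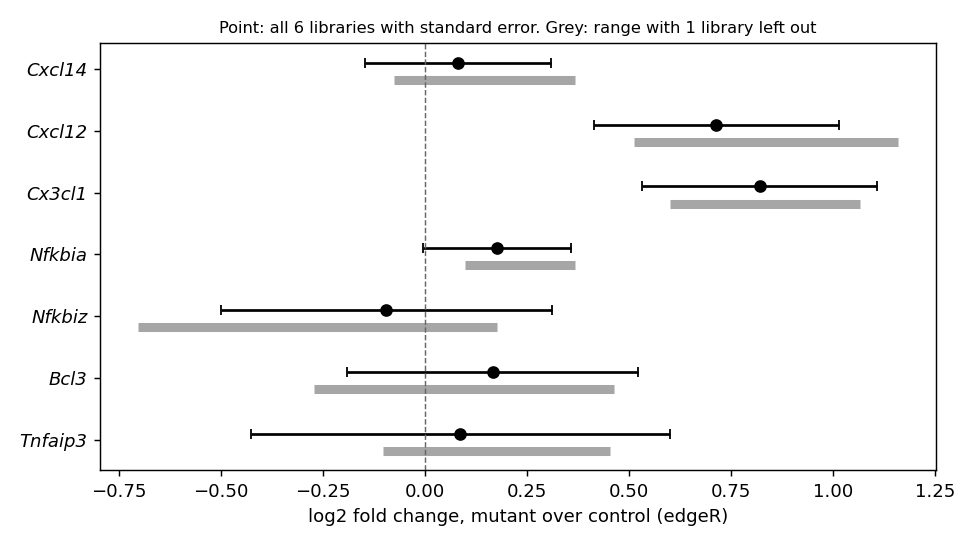
The x axis is the log2 fold change, mutant over control, from edgeR for the 7 tested members. Points with bars are the values over 6 libraries with their standard errors, and grey bars span the values with 1 library left out. The grey bars of Cx3cl1, Cxcl12 and Nfkbia stay above 0 and those of Cxcl14, Nfkbiz, Bcl3 and Tnfaip3 cross it.

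The feedback genes did not share 1 pattern over the libraries. As a description over 6 libraries, which also share their depth and composition, log2 CPM of Nfkbia ran opposite to Nfkbiz (Pearson r of -0.915) and to Bcl3 (-0.793). Nfkbiz and Bcl3 ran together (0.770), and Tnfaip3 followed Nfkbiz (0.598) and Bcl3 (0.574) more loosely. Within genotype, after the mean of each group was removed, the values were -0.929 for Nfkbia with Nfkbiz, -0.896 for Nfkbia with Bcl3 and 0.802 for Nfkbiz with Bcl3. Mutant replicate 1, where Nfkbiz and Bcl3 were highest and Nfkbia was lowest, was also the library with the most immediate early, neutrophil and macrophage transcripts. Nfkbia was high and Nfkbiz low in mutant replicates 2 and 3 alike, whose early gene sums were 1643 and 2966 CPM. The part of these transcripts in the pattern was not tested. The genes nearest to Nfkbia were Sat2 (r of 0.984), Clec3b (0.983) and Tbcd (0.975), and 49 of 16151 genes had an r above 0.9 with it.

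**Figure D3:**
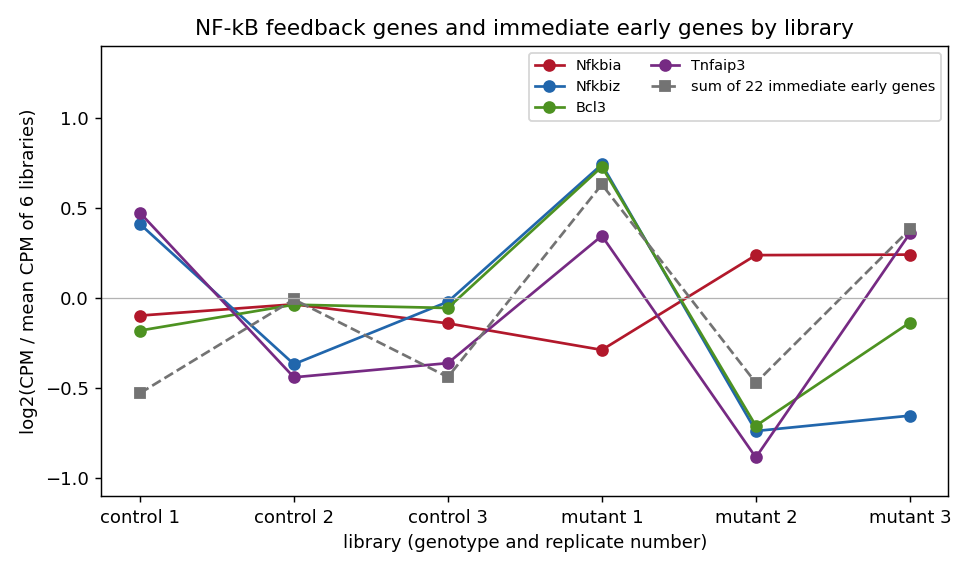
The y axis is log2 of the CPM in a library over the mean CPM of the 6 libraries, and the x axis gives the libraries, which have no order. Lines join the values of 1 gene or of the sum of 22 immediate early genes. Nfkbiz and Bcl3 peak in mutant replicate 1, where Nfkbia is lowest, and the early gene sum also peaks there at 3526 CPM. The early gene sum is next highest in mutant replicate 3 (2966 CPM), where Nfkbia is highest.

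Genes around the members were read from lists of the same pathways. Of 32 other chemokines, 6 had enough counts to be tested and none had an unadjusted p under 0.05 over all libraries by edgeR. This number moved under 6 of the alternatives run and was the same under 7. The smallest p-values belonged to Ccl27a and Ccl6. Ccl6, a chemokine of myeloid cells, was at 0.642, 0.555 and 1.02 CPM in controls and 2.85, 1.14 and 1.17 CPM in mutants (log2 fold change 1.18, SE 0.67, unadjusted p of 0.107 by edgeR). Ccl27a, a chemokine of skin, was at 14.3, 7.77 and 11.9 CPM in controls and 7.51, 8.90 and 6.59 CPM in mutants (log2 fold change -0.56, SE 0.30, unadjusted p of 0.0857). With 1 library left out the unadjusted p of Ccl27a ranged from 0.0279 to 0.321 by edgeR. Ccl4, Ccl17, Ccl20, Ccl21a and Cxcl2 were listed with 0 counts in all 6 libraries, which allows a level up to the 3 counts per library given above. Apart from Ackr3, 1 of the 10 tested chemokine receptors among 23 had an unadjusted p under 0.05. This was Ccrl2, a receptor that presents chemerin, at 1.498, 2.33 and 4.30 CPM in controls and 1.25, 0.571 and 0.956 CPM in mutants, so that all mutants lay below all controls (log2 fold change -1.56, SE 0.63, unadjusted p of 0.0330 and adjusted p of 0.676 by edgeR). With 1 library left out the unadjusted p of Ccrl2 reached 0.176. Ackr1, a chemokine-binding receptor of red cells and venules that shares exon bases with Cadm3, had a log2 fold change of 0.78 (SE 0.61) and an unadjusted p of 0.231 by edgeR. Ccr2, the receptor of CCL2 and CCL7, was at 0.107 to 2.16 CPM and Cxcr2, the receptor of CXCL1, at 0 to 0.444 CPM, and neither was tested.

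Tnf, Il1a, Il1b and Il6, cytokines that start NF-kB signalling or follow from it, had too few counts to be tested. Tnf had a count in mutant replicate 1 alone, at 0.114 CPM. Il1b was at 0.910 and 0.326 CPM in mutant replicates 1 and 2 and had no count in the other libraries. Il6 ranged from 0 to 0.625 CPM and Il1a from 0.106 to 1.67 CPM. Of 14 cytokine genes, 4 were tested, and Csf1, the growth factor of macrophages and osteoclast precursors, differed most. Csf1 stood at 13.7, 11.9 and 8.36 CPM in controls and at 19.0, 18.7 and 21.1 CPM in mutants, and all mutant libraries lay above all controls. Its log2 fold change was 0.80 (SE 0.23), with an unadjusted p of 0.00605 and an adjusted p of 0.676 by edgeR, and the unadjusted p stayed at or below 0.0239 with any 1 library left out. Il33, an alarmin, and Tnfsf11 (RANKL), the osteoclast differentiation factor, had unadjusted p of 0.316 and 0.428.

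Most components of the pathway itself had enough counts to be tested. Rela, the main activating subunit, stood at 59.2 to 74.1 CPM in controls and 60.4 to 85.0 CPM in mutants (log2 fold change 0.18, SE 0.18, unadjusted p of 0.349 by edgeR). For Nfkb1, its partner, the log2 fold change was 0.15 and the unadjusted p 0.439. None of the 4 tested subunits, of the 10 tested other inhibitors, of the 20 tested genes that relay the signal and of the 11 tested cytokine and Toll receptors had an unadjusted p under 0.05 in either direction. The medians of these lists were 0.10, 0.06, 0.00 and 0.13 on the log2 scale. The smallest p-values belonged to Nfkbib (IkBβ; log2 fold change 0.33, unadjusted p of 0.112) and Irak3, a brake on Toll signalling (0.43, 0.229), among the inhibitors. Among the relay genes they belonged to Ripk1 (-0.44, 0.106), a kinase of the TNF receptor complex, and Ikbkg (0.30, 0.116), the regulatory subunit of the IkB kinase. Among the receptors they belonged to the decoy receptor Il1r2 (-1.23, 0.107) and to Il1r1 (0.36, 0.135). Myd88 was listed with 0 counts in all libraries. It lies within the span of Slc22a14 on the same strand, and a 0 there can come from how overlapping genes were counted. No gene on the same strand overlaps any of the 10 members in GENCODE M21.

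Other target genes of NF-kB gave 3 of 18 tested genes with an unadjusted p under 0.05, all higher in mutants, and a list median of 0.06. Tnfaip2 stood at 8.88, 5.44 and 6.33 CPM in controls and at 12.3, 12.5 and 10.4 CPM in mutants, with all mutants above all controls (log2 fold change 0.77, SE 0.28, unadjusted p of 0.0193 and adjusted p of 0.676 by edgeR). Icam1, an adhesion molecule for leukocytes, stood at 21.8, 34.8 and 25.6 CPM in controls and at 40.4, 31.7 and 42.0 CPM in mutants (log2 fold change 0.47, unadjusted p of 0.0476). Ier3, which is also an immediate early gene, stood at 16.6, 12.7 and 8.29 CPM in controls and at 25.0, 13.0 and 23.0 CPM in mutants (log2 fold change 0.70, unadjusted p of 0.0498). For Icam1 and Ier3 the genotypes overlapped. With 1 library left out the unadjusted p reached 0.0712 for Tnfaip2, 0.140 for Icam1 and 0.155 for Ier3. Next by p came Ptges, a prostaglandin E synthase, with all mutants below all controls (log2 fold change -0.80, SE 0.43, unadjusted p of 0.0927), and Traf1, an adaptor of TNF receptors (0.85, SE 0.48, 0.107). Of the 18 tested, 11 had a positive and 7 a negative log2 fold change.

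**Figure D4:**
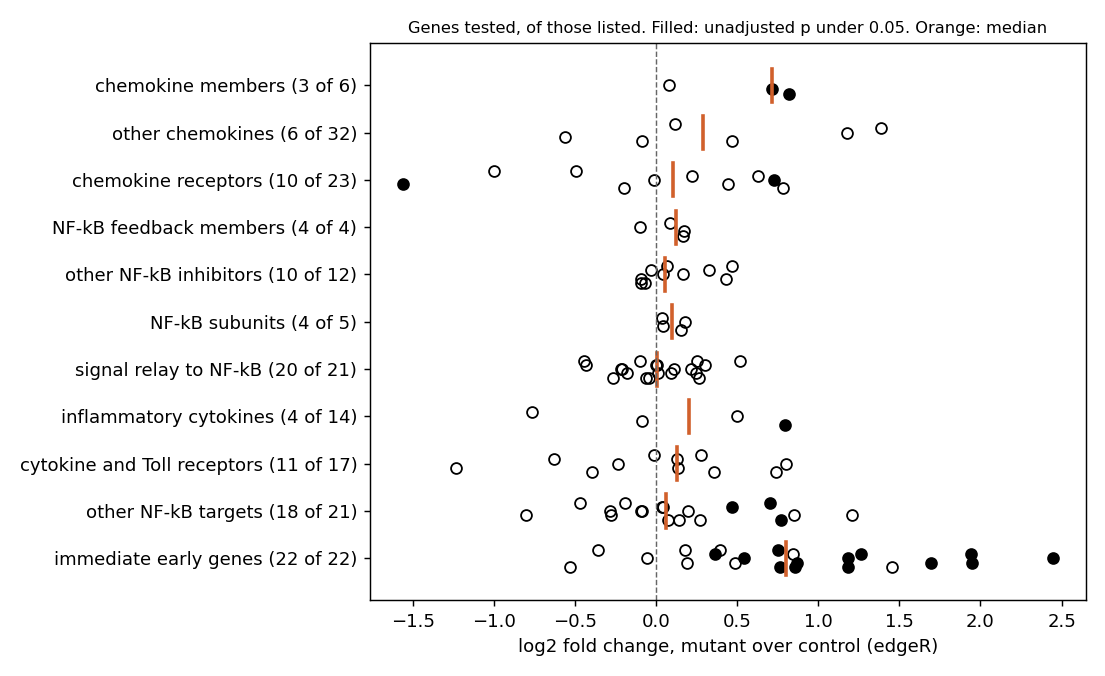
Each row is 1 list, with the number of genes tested and listed, and each circle is the log2 fold change of 1 tested gene, mutant over control, from edgeR. Filled circles have an unadjusted p under 0.05 and orange bars are list medians. The pathway lists centre near 0, with medians of 0.00 to 0.29 outside the chemokine members, whereas the 22 immediate early genes have a median of 0.80.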

How the data were processed

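Poly(A) RNA of 6 pooled disc samples, 3 mutant and 3 control, was sequenced, and the authors deposited a table of raw counts by gene symbol for each library, ending in the summary lines of htseq-count. The submitters' processing notes name STAR 2.5.3a, HTSeq and DESeq2 with mm10, while the paper's methods name HISAT2, StringTie and Ballgown. The strand setting is not given in the sources used here. A deposited table of the authors' own comparison (fold changes and p-values of a subset of genes) was not used. Between 40.4% and 44.2% of reads fell on genes; 39.4% to 43.3% fell on no feature and 12.0% to 18.9% were not aligned, and these lines were left out.

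Counts were compared between genotypes with edgeR 4.0.16 in R 4.3.3 (TMM, filterByExpr with a count minimum of 10, quasi-likelihood test, Benjamini-Hochberg adjustment over 16152 genes, threshold 0.05). Alternatives were RLE scaling, no filter, DESeq2 1.42.0, limma-voom with quality weights (limma 3.58.1), a replicate block, leaving out each library, and 2 settings added after the data were seen. Correlations used log2(CPM + 0.5). Lengths and coordinates are from GENCODE M21 (GRCm38), which gave a length for 95.2% of tested genes. Promoters are RefSeq sequences.

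The members, gene lists and tests were chosen with earlier results of these data known. Genes named besides the members were the receptors and cytokines that act with them, and in each pathway list (not the marker lists) those with an unadjusted p under 0.05 plus the 2 smallest p-values besides. A chemokine receptor that this rule names is not reported here. Marker genes were named after their values were seen.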

Additional observations from a re-analysis of the deposited data

How the results depend on the processing

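No member passed an adjusted p of 0.05 under any alternative run, and Cx3cl1 and Cxcl12 stayed higher in mutants under all of them. Both had an unadjusted p under 0.05 with RLE scaling, without the filter, with DESeq2, with limma-voom and with the scaling that left out muscle, red cell and neutrophil genes. With 1 library left out, the number of members with an unadjusted p under 0.05 ranged from 0 (without control replicate 3) to 2, and the number whose genotypes did not overlap from 1 to 3, while the share of all tested genes that did not overlap ranged from 17.4% to 30.1% (19.0% without mutant replicate 1, where it was 3 members). Over all genes, the number with an unadjusted p under 0.05 was 1164, and it was 2276 without the filter, 2198 without both first replicates and 618 (without control replicate 3) to 2427 (without control replicate 1) with 1 library left out. The number with an adjusted p under 0.05 was 1 by edgeR, 245 without the filter, 54 by DESeq2, 0 by limma-voom, 24 without both first replicates and 0 to 31 with 1 library left out; the cause was not tested. Libraries with the same replicate number showed no clear sign of pairing (correlations of deviations 0.129, -0.172 and 0.093). Those with unlike numbers gave -0.258 to 0.179, and so few libraries cannot show whether litters or batches were shared. With the replicate block 0 genes passed the adjusted p, 2 members had an unadjusted p under 0.05, and Cx3cl1 and Cxcl12 had log2 fold changes of 0.85 and 0.76. The log2 fold change altered its sign in 4 members when 1 library was left out, ranging from -0.0766 (without control replicate 3) to 0.366 for Cxcl14, from -0.703 to 0.176 (without mutant replicate 2) for Nfkbiz, from -0.103 (without mutant replicate 3) to 0.454 for Tnfaip3 and from -0.271 (without mutant replicate 1) to 0.463 for Bcl3. It was also -0.0434 for Cxcl14 by limma-voom and -0.305 for Bcl3 without both first replicates. Depth limits Ccl2, Ccl7 and Cxcl1, which had at most 7 counts in a library.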
